A study of Mus musculus with 15 samples.

Results

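A set of 85 genes, of 18193 genes read on the array, was at background in fast-spiking interneurons of the mouse cortex at postnatal day (P) 7 and above background from P15 on. Each gene was read from 1 probe set, the one with the highest mean over all 15 arrays among those annotated to a single gene. A gene belonged to the set when it lay at or under a log2 level of 5 on all 3 P7 arrays and over 5 on all 9 arrays of P15, P25 and P40. A log2 level of 5 was taken as the limit between signal and background. Of 95 genes that met these values, 10 were left out by their symbols, because Pvalb, Cartpt and several large gene families were set apart. The levels at P7, P15, P25 and P40 therefore chose the members, and their difference from P7 is a description that carries no test. P10 was not used in the choice.

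The series followed the maturation of these cells by whole-genome microarray. All samples came from G42 mice, in which green fluorescent protein under the Gad1 promoter marks parvalbumin-class, fast-spiking interneurons, and no group received a treatment. Labelled neurons were picked by hand from the dissociated primary somatosensory cortex of untreated P7, P10, P15, P25 and P40 animals, with the oldest group reaching day 45. Each age had 3 arrays from 3 different animals, and each array held 1 animal's pool of 23 to 85 cells after 2 rounds of RNA amplification. The picked cells are those in which the transgene is visible at that age, so a change in which cells are labelled and a change within a cell cannot be told apart here. Nor can fewer cells of a type and less RNA per cell.

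Fast-spiking interneurons are the largest class of inhibitory neurons in the cortex. They express the calcium buffer parvalbumin, contact the cell body of pyramidal neurons, and acquire brief action potentials, fast transmitter release and a high energy turnover during the early postnatal weeks. The maturing program is best known for channels, synaptic proteins and mitochondrial enzymes. Many genes of those families, among them ion channels, synaptotagmins and subunits of the respiratory chain, were set apart by symbol. That the members described here lie mostly outside those families is thus in part a matter of choice. The members include lipid enzymes, ubiquitin ligase subunits, secreted factors, receptors, inhibitors of growth factor signalling and transcription regulators.

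The labelled cell type could be checked on the arrays. Pvalb was 3.62 ± 0.72 (SD, n = 3) at P7 and 14.28 ± 0.20 at P40, and Gad1, the enzyme of GABA synthesis whose promoter drives the label, was 13.47 or higher on all arrays. Slc17a7, which loads vesicles of excitatory neurons, was at most 2.62 on all arrays. Of 14 excitatory markers, though, only 8 were never over the limit, and 2 to 4 were over it on all 3 arrays of an age. Their mean ran from 4.64 to 4.98 at P7, 4.89 to 5.22 at P10 and 4.40 to 4.84 at P15. It was 4.63 to 4.74 at P25 and 4.51 to 4.61 at P40. Sst, the peptide of another interneuron class, was 9.20 to 13.04 on 14 arrays and 1.72 on P40 replicate 1, which stood apart in this. The mean over 14 markers of other interneuron classes ran from 6.59 to 7.13 at P7, 5.95 to 6.60 at P10, 6.25 to 6.89 at P15, 6.26 to 7.16 at P25 and 5.65 to 6.71 at P40. No gene of the lists of markers for excitatory neurons, astrocytes, oligodendrocytes and their precursors, microglia, vessels or blood was a member. Glial markers were present on some arrays: astrocyte Gja1 was 8.55 and 9.02 on P10 replicates 2 and 3 and 9.65 on P25 replicate 2, against 4.03 or less elsewhere. Astrocyte Slc1a2 was 8.30, 8.55 and 8.47 at P10 and 7.23, 6.98 and 6.37 at P25, and at most 5.79 elsewhere. Myelin Mobp was 7.71, 8.37 and 6.34 at P25 and 3.58 or less elsewhere, but Mbp, also of myelin, was over 5 on all arrays, with 8.93, 8.58 and 7.14 at P15, 11.58, 11.56 and 10.48 at P25, and 5.09, 6.68 and 7.81 at P40. The part of glial RNA in the members' levels was not tested. The mean over 15 astrocyte markers ran from 3.45 to 4.05 at P7, 3.84 to 4.70 at P10, 3.28 to 3.63 at P15, 3.91 to 5.09 at P25 and 3.29 to 3.74 at P40, and Gfap was at background on all arrays. Over 17 oligodendrocyte markers it ran from 3.67 to 3.83, 3.75 to 4.01, 3.53 to 3.83, 4.33 to 4.58 and 3.63 to 3.77, and Mog was at background on all arrays. P15 replicates 2 and 3 had low spiked control RNAs, with averages of 2.45 and 2.43, where no other array was under 9.18. The gap between 3′ and 5′ beta-actin probe sets, a sign of RNA length, averaged 5.77, 5.73, 4.50, 5.31 and 3.93 at the ages in order. It was thus larger at P7 than at P15 and P40, and its part in the members' difference was not tested.

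The median level over the members was 3.65 at P7 and 5.06 at P10. It was 6.92 at P15, then 7.47 at P25 and 7.60 at P40. The mean of the 9 later arrays exceeded the P7 mean by 1.38 to 7.54 on the log2 scale, with a median of 3.80, and 38 members differed by 4 or more. Later levels covered a wide range, from 5.47 to 11.01 with a median of 7.33, and 26 members averaged over 8 while 32 averaged under 7. A background value has no exact size, so a fold is given below only as a bound, the later mean over the limit of 5. By biotype, 81 members were protein coding, 3 were long noncoding RNAs and 1 was a transcribed pseudogene. For comparison, limma called 20.9% of the 9663 genes tested higher at P15 than at P7 and 27.5% higher at P40 than at P7. All 85 members were among the genes tested, which the rule itself ensures.

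**Figure D1:**
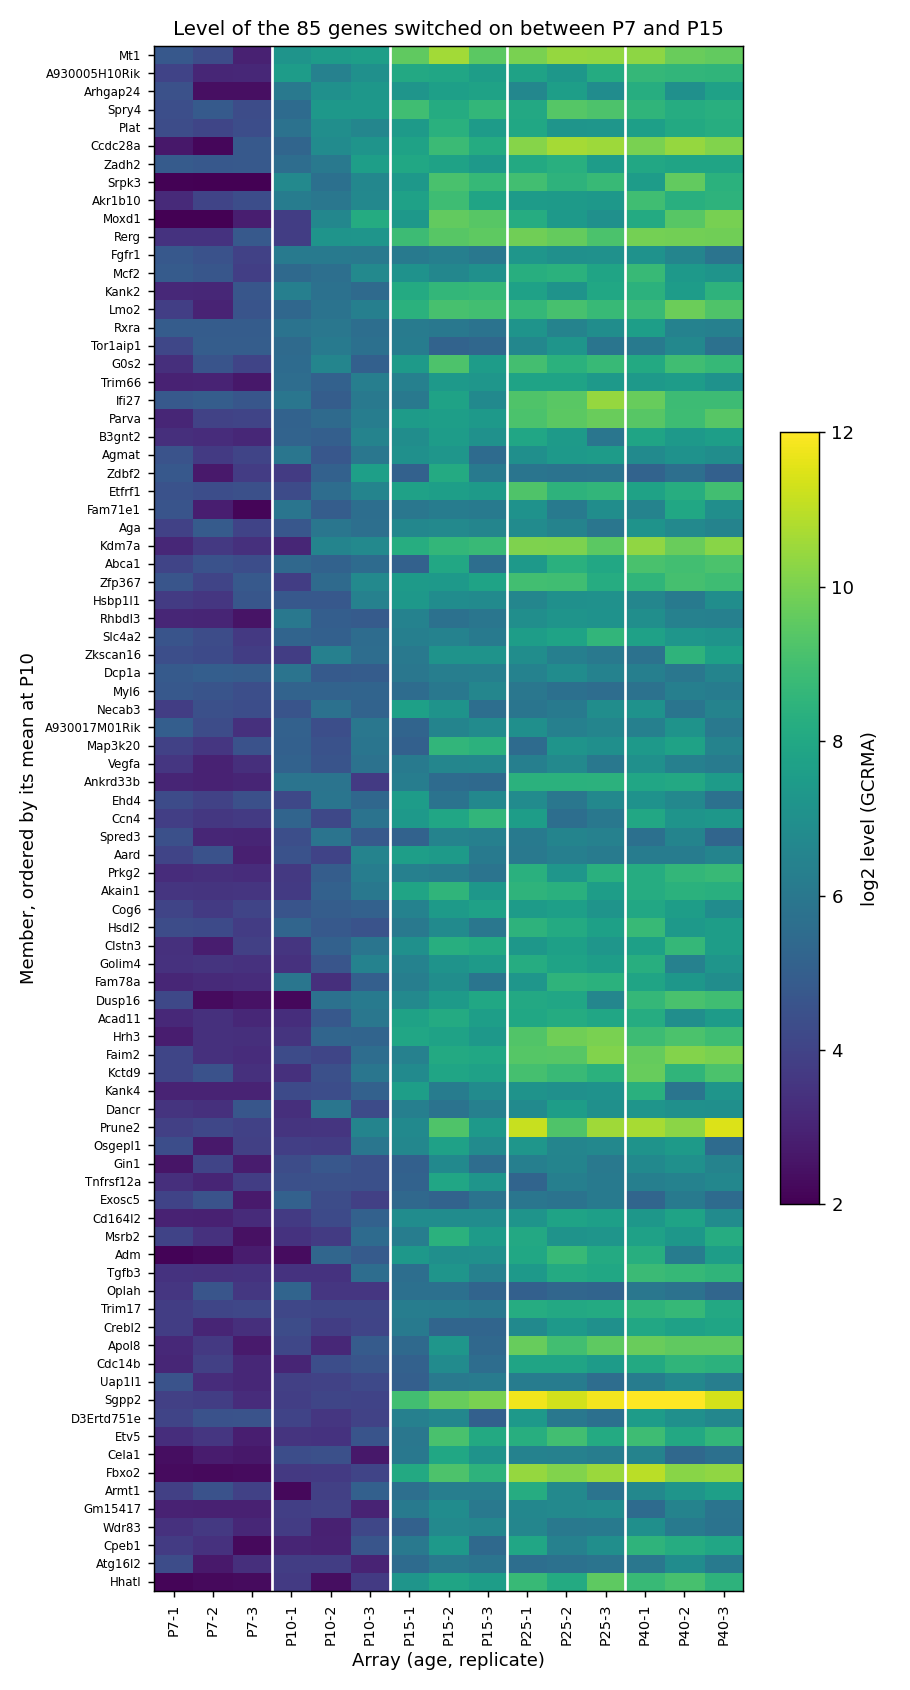
Log2 level of each of the 85 members (rows, ordered from the highest to the lowest P10 mean) on each of the 15 arrays (columns, 3 mice an age). All members are dark at P7 and above 5 from P15 on, as the rule demands, while the P10 columns run from 7.18 to 7.62 for Mt1 at the top to 2.38 to 3.71 for Hhatl at the bottom.

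The rule did not use P10, but it used P7 and P15 on either side. A P10 level between those ages was thus largely set in advance. The P10 mean lay above the P7 mean for 83 members and below it for 2, D3Ertd751e and Armt1. By P10, 22 members were over the limit on all 3 arrays, 24 on 2 arrays, 22 on 1 array and 17 on none. The 3 P10 arrays all lay above the 3 P7 arrays for 47 members, where 8.17% of all genes tested did so, and all lay below the 3 P15 arrays for 61 members, where 20.9% did so. Each comparison of P10 with P7 or P15 has an age that chose the members on one side, so nothing is read from these counts. As measured, the larger step was from P10 to P15 for 56 members and from P7 to P10 for 29, where a step that starts at background has no exact size.

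The 3 P10 animals were not alike. Members over the limit numbered 36 on replicate 1, 41 on replicate 2 and 59 on replicate 3, and the member median was 4.42, 4.95 and 5.59 on these arrays. Without replicate 1, 36 members were over the limit on all P10 arrays, and without replicate 3, 32 were over it on none. The arrays held 71, 72 and 47 cells, and their beta-actin gaps were 5.77, 6.09 and 5.34. The limit was crossed on replicate 3 alone by 15 members, on replicates 2 and 3 by 14 and on replicates 1 and 3 by 8. It was crossed on replicate 1 alone by 4, on replicate 2 alone by 3 and on replicates 1 and 2 by 2. Gja1 was 3.25, 8.55 and 9.02 on replicates 1, 2 and 3. Another astrocyte gene, Slc1a2, did not separate these arrays, at 8.30, 8.55 and 8.47. Kdm7a, Moxd1 and Rerg were among the 14 members over the limit on replicates 2 and 3 only. Adm, at 2.35, 5.32 and 4.88, ran the same way without passing the limit on replicate 3. The part of glial RNA or RNA length in the P10 levels was not tested.

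**Figure D2:**
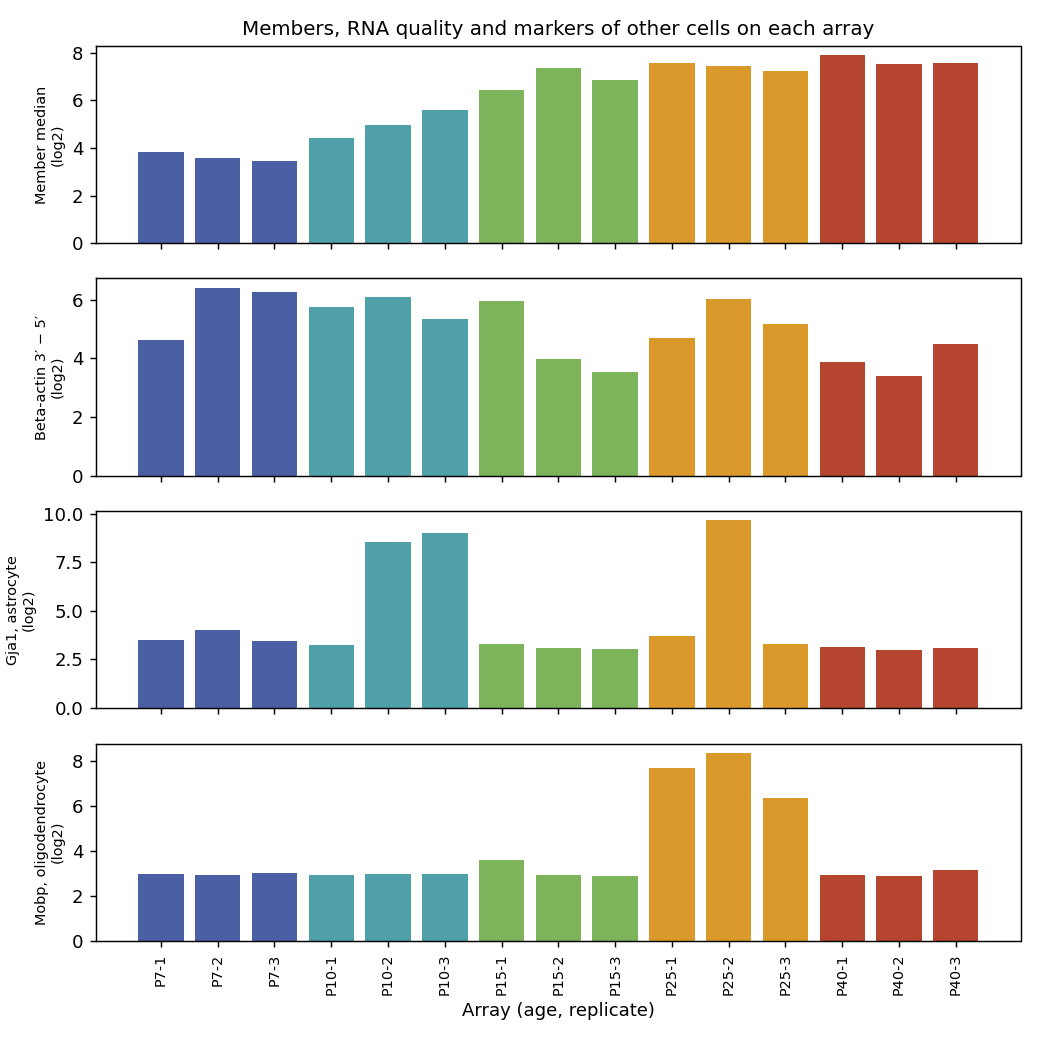
Median log2 level of the 85 members, the log2 gap between 3′ and 5′ beta-actin probe sets, and the log2 levels of astrocyte Gja1 and oligodendrocyte Mobp on each array. The member median is 3.46 to 3.85 at P7 and 6.43 or higher from P15 on, while Gja1 stands out on P10 replicates 2 and 3 and P25 replicate 2, and Mobp at P25.

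Levels at P10 ranged widely, and since each comes from another probe set they give no order of onset. The highest P10 means belonged to Mt1, A930005H10Rik, Arhgap24, Spry4, Plat, Ccdc28a, Zadh2 and Srpk3. The noncoding A930005H10Rik, for example, was 4.01, 3.06 and 3.10 at P7 and already 7.53, 6.41 and 7.03 at P10, against a later mean of 8.06. Fgfr1, a receptor for fibroblast growth factors, was 4.76, 4.53 and 3.92 at P7, 6.08, 6.08 and 6.06 at P10 and 6.10, 6.32 and 6.01 at P15, so that its P10 and P15 arrays overlapped. The lowest P10 means belonged to Hhatl, Atg16l2, Cpeb1, Wdr83, Gm15417, Armt1, Fbxo2 and Cela1. Cpeb1, which controls the translation of messenger RNA at synapses, was 3.75, 3.42 and 2.25 at P7, 3.04, 2.96 and 4.64 at P10 and 6.04, 7.39 and 5.41 at P15. Its P7 and P10 arrays overlapped under the limit, so the rule itself placed its P15 arrays above both.

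The rule set no order among P15, P25 and P40, and these ages were compared by test. It did keep every array of these ages over the limit, so a member near the limit at P15 could not fall far. The counts of members that fell, and their balance with those that rose, were thus partly set by the choice. The same bound holds for the differences and orders among these ages given below. Between P15 and P25, 14 members (16.5%) rose and 0 fell by limma's moderated test with an adjusted p under 0.05, where 2.37% of all genes tested rose and 2.49% fell. Between P15 and P40, 15 members (17.6%) rose and 0 fell, where 2.17% of all genes tested rose and 3.49% fell. Between P25 and P40 no member passed, 6 had an unadjusted p under 0.05, and 0.404 and 0.269% of all genes tested rose and fell. A moderated F test over the 3 ages called 17 members (20.0%), against 6.71% of all genes tested. Among the 7671 genes that were over the limit on all arrays of these ages and of P7 as well, 1.96% rose and 2.23% fell between P15 and P25, and 1.69% rose and 3.17% fell between P15 and P40.

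Over all 85 members, called or not, the median difference was 0.43 for P25 minus P15, with 61 members above 0, 0.44 for P40 minus P15, with 69 above 0, and 0.14 for P40 minus P25. For the 7671 genes over the limit at P7 as well, it was 0.01 for P25 minus P15, with 3915 above 0. It was 0.01 for P40 minus P15, with 3896 above 0, and -0.01 for P40 minus P25. P15 was the lowest of the 3 later ages for 56 members, P25 for 20 and P40 for 9. P40 was the highest age for 42 members, P25 for 32 and P15 for 11, and 29 members were higher at each later age than at the one before. The same orders over all genes are not given, so nothing is read from these counts. Counts changed when single arrays were left out. Without P15 replicate 3, P25 replicate 2 or P25 replicate 3, 8 members rose between P15 and P25 in each case. Without P40 replicate 1, the array with Sst at background, 9 rose between P15 and P40. Without P15 replicate 3, the F test called 9 members. Without both P15 arrays with low spiked controls, 6 members rose between P15 and P25, 10 between P15 and P40, and 8 passed the F test. The P15 arrays held the fewest cells, 23 to 45. With the number of cells as a covariate, 18 members rose between P15 and P25, 17 between P15 and P40, and 19 passed the F test. The shares of all genes tested under these settings are not given, so nothing particular to the members is read from these changes.

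In all, 18 members (21.2%) rose in at least 1 of these comparisons, where 3.3% of all genes tested did so. The 14 called for P25 rose by 2.86 to 10.4-fold between P15 and P25, and the 15 called for P40 by 3.10 to 12-fold between P15 and P40. Ankrd33b, Apol8, Cdc14b, Crebl2, Faim2, Fbxo2, Hsdl2, Ifi27, Parva, Sgpp2 and Trim17 rose in both. Ccdc28a, Hrh3 and Slc4a2 passed for P25 alone, and Abca1, Prkg2, Prune2 and Tgfb3 for P40 alone. Both comparisons share the P15 arrays, and a difference between P25 and P40 was not called for any of these genes. Calls for P25 minus P15 of Trim17 and Ankrd33b and for P40 minus P15 of Crebl2 were lost without both P15 arrays with low spiked controls. With the mean of all probe sets of a gene, the P25 minus P15 calls of Ifi27 (1.89) and Ankrd33b (1.03) were lost, and P25 minus P15 of Trim17 (1.01) and P40 minus P15 of Crebl2 (1.17) were smaller.

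**Figure D3:**
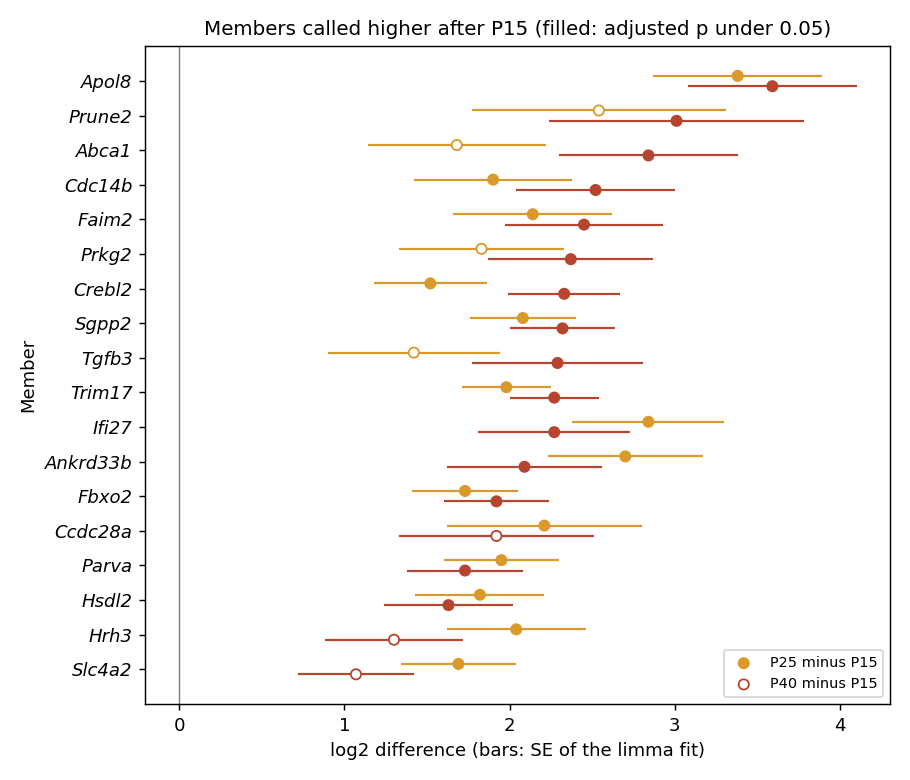
Log2 difference with the standard error (SE) of the limma fit (bars) for P25 minus P15 and P40 minus P15 in the 18 members called in at least 1 of them; filled points passed an adjusted p of 0.05. All 36 differences lie above 0, which the choice of members called higher and the shared P15 arrays largely set in advance. Apol8 has the largest difference in both comparisons, at 3.38 and 3.59.

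The 85 members were sorted by known role into 8 groups after they had been chosen, so the counts of risen members by group, 18 of 85 in all, are a description. Lipid handling, metabolism and transport held 16 members, with a median difference from P7 of 3.99, and 5 of them rose after P15. Sgpp2, which removes the phosphate of the signalling lipid sphingosine-1-phosphate, had a later mean of 11.01 and was at least 64.6-fold above its P7 level. It read 3.89, 3.81 and 3.28 at P7, 3.85, 4.08 and 4.01 at P10, 8.97, 9.68 and 10 at P15, 11.77, 11.30 and 11.82 at P25, and 12.15, 12.07 and 11.37 at P40. It was thus off on all P7 and P10 arrays, on at P15, and higher again on every P25 and P40 array, with no overlap between P15 and these ages. The increase was 2.08 (SE 0.32, limma adjusted p = 0.0021) from P15 to P25 and 2.32 (adjusted p = 0.00066) from P15 to P40.

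Apol8, a member of the apolipoprotein L family, read 3.14, 3.65 and 2.73 at P7, 4.12, 3.12 and 4.87 at P10, 5.40, 7.25 and 5.38 at P15, 9.66, 8.97 and 9.52 at P25, and 9.70, 9.54 and 9.54 at P40. On P15 replicates 1 and 3 it was barely above the limit, and the P25 and P40 arrays lay above all P15 arrays. It rose by 3.38 (SE 0.51, limma adjusted p = 0.0018), or 10.4-fold, from P15 to P25. Without P15 replicate 2 this difference was 4.0, and with the number of cells as a covariate 4.02. For P40 minus P15 it was 3.59, and 4.21 and 4.18 under these settings. Abca1, which exports cholesterol from cells, read 4.05, 4.53 and 4.35 at P7, 5.38, 5.16 and 5.48 at P10, 5.12, 7.98 and 5.60 at P15, 7.41, 8.33 and 8.0 at P25, and 9.12, 8.96 and 9.15 at P40. P15 replicate 2 stood apart from the other P15 arrays, and all P40 arrays lay above it (2.84, SE 0.54, limma adjusted p = 0.0060 for P40 minus P15). Hsdl2, a peroxisomal dehydrogenase, rose 3.53-fold from P15 to P25, and Slc4a2, which exchanges chloride for bicarbonate, rose 3.22-fold.

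Other members of this group did not pass after P15. Mt1, a metallothionein that binds zinc and copper, read 4.74, 4.34 and 2.91 at P7, 7.18, 7.48 and 7.62 at P10, 9.55, 10.60 and 9.49 at P15, 9.98, 10.42 and 10.36 at P25, and 10.29, 9.72 and 9.60 at P40. The P10 arrays were over the limit, so the rule itself placed P7 below them, and they lay below those of P15 without overlap. The later ages overlapped (P40 minus P15 -0.01, SE 0.43, limma adjusted p = 0.99). Moxd1, a relative of dopamine beta-hydroxylase, read 2.03, 1.98 and 2.84 at P7, 3.81, 6.64 and 8.15 at P10, 7.35, 9.60 and 9.41 at P15, 8.19, 7.37 and 7.01 at P25, and 8.11, 9.40 and 9.96 at P40. Its P25 arrays were at most 8.19 and overlapped with P15, and P25 minus P15 was -1.26 (SE 0.87, limma adjusted p = 0.48). G0s2, an inhibitor of triglyceride breakdown, Acad11, an acyl-CoA dehydrogenase, and Akr1b10, an aldo-keto reductase, averaged 8.45, 7.80 and 8.04 on the later arrays. Etfrf1, a regulator of the electron transfer flavoprotein, Zadh2, a reductase of prostaglandins, Agmat, an agmatinase, Msrb2, a methionine sulfoxide reductase, and Uap1l1 averaged 8.24, 7.85, 6.94, 7.52 and 6.04. Oplah, the enzyme that opens 5-oxoproline in the glutathione cycle, averaged 5.47.

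Protein turnover and cell survival held 7 members, of which none was over the limit on all P10 arrays and 4 rose after P15. Fbxo2, the neuronal subunit by which an SCF ubiquitin ligase recognises glycoproteins, was at least 28.0-fold above its P7 level. It read 2.29, 2.24 and 2.28 at P7, 3.67, 3.68 and 4.05 at P10, 8.08, 9.22 and 8.46 at P15, 10.40, 10.09 and 10.48 at P25, and 10.97, 10.23 and 10.33 at P40. The P7 arrays were at most 2.29, P10 was under the limit, and all P25 and P40 arrays lay above all P15 arrays, with an increase of 1.92 (SE 0.32, limma adjusted p = 0.0024) from P15 to P40. Trim17, a ubiquitin ligase known from neuronal death, read 3.80, 4.10 and 4.11 at P7, 4.12, 4.10 and 4.09 at P10, 6.25, 6.18 and 5.99 at P15, 8.18, 8.05 and 8.12 at P25, and 8.51, 8.71 and 8.02 at P40. Its P7 and P10 arrays overlapped under the limit, so the rule itself placed its P15 arrays above both, and these lay close together. The increase of 1.98 (SE 0.27, limma adjusted p = 0.0012) had the smallest adjusted p of all members from P15 to P25.

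Faim2, a membrane protein that protects neurons from Fas-induced death, read 4.08, 3.38 and 3.25 at P7, 4.28, 4.08 and 5.59 at P10, 6.38, 8.07 and 7.97 at P15, 9.36, 9.39 and 10.10 at P25, and 9.65, 10.13 and 10 at P40. It rose 4.41-fold from P15 to P25 and 5.47-fold from P15 to P40, with no overlap of either age with P15. Prune2, a BCH-domain protein, read 3.89, 4.12 and 3.94 at P7, 3.52, 3.53 and 6.52 at P10, 6.75, 9.24 and 7.36 at P15, 11.16, 9.23 and 10.59 at P25, and 10.68, 10.25 and 11.46 at P40. At P10 it was on in replicate 3 alone, and the P15 array of replicate 2 overlapped with P25. It passed for P40 minus P15 only (3.01, SE 0.77, limma adjusted p = 0.032). Kctd9, a substrate adaptor of ubiquitin ligases, had a later mean of 8.45, Aga, a lysosomal enzyme of glycoprotein breakdown, 6.60, and Atg16l2, a relative of an autophagy protein, 5.94. None of these 3 passed after P15.

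Receptors and intracellular signalling held 13 members, with a median difference of 4.06 from P7, and 3 of them rose after P15. Hrh3, the histamine receptor that restrains transmitter release, read 2.80, 3.37 and 3.36 at P7, 3.51, 5.27 and 5.23 at P10, 7.90, 7.78 and 7.32 at P15, 9.29, 9.84 and 10 at P25, and 8.84, 9.15 and 8.90 at P40. It was at most 5.27 at P10 and rose 4.12-fold from P15 to P25 (2.04, SE 0.42, limma adjusted p = 0.013). At P40 it was above all P15 arrays and below all P25 arrays, and neither P40 minus P15 (1.30, limma adjusted p = 0.092) nor P40 minus P25 passed.

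Several members belong by known role to Ras or MAP kinase signalling or to the families of its proteins. Spry4 and Spred3, inhibitors of growth factor signalling through Ras, averaged 8.60 and 6.05 on the later arrays, and Dusp16, a phosphatase of MAP kinases, 7.93. Spry4 read 4.42, 4.85 and 4.34 at P7, 5.50, 7.35 and 7.35 at P10, 8.95, 8.16 and 8.62 at P15, 8.02, 9.37 and 9.20 at P25, and 8.54, 8.19 and 8.30 at P40. All its P10 arrays were over the limit, so the rule itself placed its P7 arrays below them, and replicate 1 was the lowest of the P10 arrays. Rerg, a small GTPase of the Ras family, read 3.47, 3.48 and 4.79 at P7, 3.82, 7.19 and 7.22 at P10, 8.86, 9.40 and 9.51 at P15, 9.85, 9.63 and 9.16 at P25, and 9.91, 9.89 and 9.85 at P40. At P10 it was off in replicate 1 and on in both others, and later it stayed between 8.86 and 9.91. Map3k20, a stress kinase, Tnfrsf12a, the receptor of the cytokine TWEAK, and Akain1, an anchor of protein kinase A, averaged 7.04, 6.37 and 8.11 later.

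Prkg2, the cyclic GMP-dependent kinase of type II, read 3.28, 3.33 and 3.28 at P7, 3.67, 4.95 and 6.24 at P10, 6.37, 6.22 and 5.84 at P15, 8.33, 7.27 and 8.33 at P25, and 8.18, 8.63 and 8.72 at P40. All P40 arrays were above all P15 arrays, by 2.37 (SE 0.50, limma adjusted p = 0.012). Cdc14b, a dual-specificity phosphatase, read 3.08, 3.90 and 3.13 at P7, 3.02, 4.37 and 4.65 at P10, 5.10, 6.82 and 5.57 at P15, 7.85, 7.85 and 7.48 at P25, and 8.06, 8.56 and 8.42 at P40. Its P25 and P40 arrays lay above all P15 arrays, and the increase was 3.72-fold to P25 and 5.72-fold to P40. Arhgap24, which inactivates the GTPase Rac, was 6.06, 7.0 and 7.28 at P10 and Mcf2, a guanine nucleotide exchange factor, averaged 5.92 at P10, and both were over the limit there on all arrays.

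Growth factors and other secreted proteins held 6 members, with differences from P7 of 3.14 to 5.23. Adm, the precursor of the vasodilator peptide adrenomedullin, read 2.10, 2.20 and 2.75 at P7, 2.35, 5.32 and 4.88 at P10, 7.33, 6.98 and 7.01 at P15, 7.96, 8.75 and 8.11 at P25, and 8.26, 6.21 and 7.58 at P40. The later ages overlapped and no difference among them passed. Tgfb3, a growth factor of the transforming growth factor beta family, read 3.45, 3.42 and 3.46 at P7, 3.45, 3.46 and 5.58 at P10, 5.60, 7.20 and 6.41 at P15, 7.39, 8.13 and 7.94 at P25, and 8.83, 8.69 and 8.55 at P40. At P10 it was over the limit in replicate 3 alone, and its P40 arrays lay above all P15 and P25 arrays (P40 minus P15 2.29, SE 0.52, limma adjusted p = 0.017). Vegfa, the vascular endothelial growth factor, was 3.58, 2.96 and 3.33 at P7, 5.14, 4.58 and 5.75 at P10, and between 6.02 and 7.02 later. Ccn4, a matricellular protein of the Wnt pathway, was 7.38, 7.90 and 8.58 at P15 and 7.56, 5.63 and 5.99 at P25, and P25 minus P15 was -1.56 (SE 0.51, limma adjusted p = 0.097). Plat, the plasminogen activator of tissue type, and Cela1, an elastase, averaged 7.74 and 6.41 later. With Fgfr1, Tgfb3 and Vegfa, 3 of the 42 genes for trophic factors, their receptors and morphogens that were on at all later ages were members, beside 1.1% of all 7723 genes on at these ages and not set apart by symbol. This count is small and comes from 1 of 14 families, so nothing is read from it.

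Transcription, chromatin and RNA regulators held 13 members, with differences from P7 of 1.42 to 6.62, and 1 of them, Crebl2, rose after P15. Srpk3, a kinase of splicing factors best known from muscle, read 2.05, 1.87 and 1.82 at P7, 6.70, 5.70 and 6.63 at P10, 7.32, 9.13 and 8.68 at P15, 8.96, 8.46 and 8.74 at P25, and 7.52, 9.58 and 8.38 at P40. It was on by P10 in all animals and then overlapped between ages. Kdm7a, which removes repressive methyl groups from histones, read 3.10, 3.66 and 3.39 at P7, 3.09, 6.51 and 6.70 at P10, 8.24, 8.62 and 8.78 at P15, 10.07, 10.02 and 9.48 at P25, and 10.35, 9.72 and 10.22 at P40. P10 replicate 1 was as low as P7 while the other P10 arrays were over the limit, and the later differences did not pass (P40 minus P15 1.55, SE 0.67, limma adjusted p = 0.22).

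Lmo2, a LIM-domain bridge between transcription factors known from blood development, read 3.86, 3.01 and 4.59 at P7, 5.34, 5.81 and 6.32 at P10, 8.40, 9.09 and 8.99 at P15, 8.67, 9.10 and 8.74 at P25, and 8.77, 9.75 and 9.25 at P40. The P15, P25 and P40 arrays overlapped, and P25 minus P15 was 0.01 (SE 0.41). Crebl2, a small bZIP protein related to CREB, read 3.81, 3.04 and 3.34 at P7, 4.33, 3.80 and 4.05 at P10, 6.07, 5.28 and 5.27 at P15, 6.73, 7.42 and 7.02 at P25, and 8.0, 7.71 and 7.89 at P40. Every P25 array was above every P15 array and every P40 array above every P25 array, with an increase of 2.33 (SE 0.34, limma adjusted p = 0.00086) from P15 to P40. Etv5, an ETS factor downstream of fibroblast growth factors, was 3.49, 3.46 and 4.60 at P10 and 5.98, 9.12 and 8.09 at P15. Rxra, the partner of many nuclear receptors, differed from P7 by 1.63, and Dcp1a, of messenger RNA decapping, by 1.42. Exosc5, of the RNA exosome, Osgepl1, of transfer RNA modification, the zinc finger proteins Zfp367 and Zkscan16 and the chromatin protein Trim66 differed by 1.90, 3.21, 3.86, 2.67 and 4.46.

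**Figure D4:**
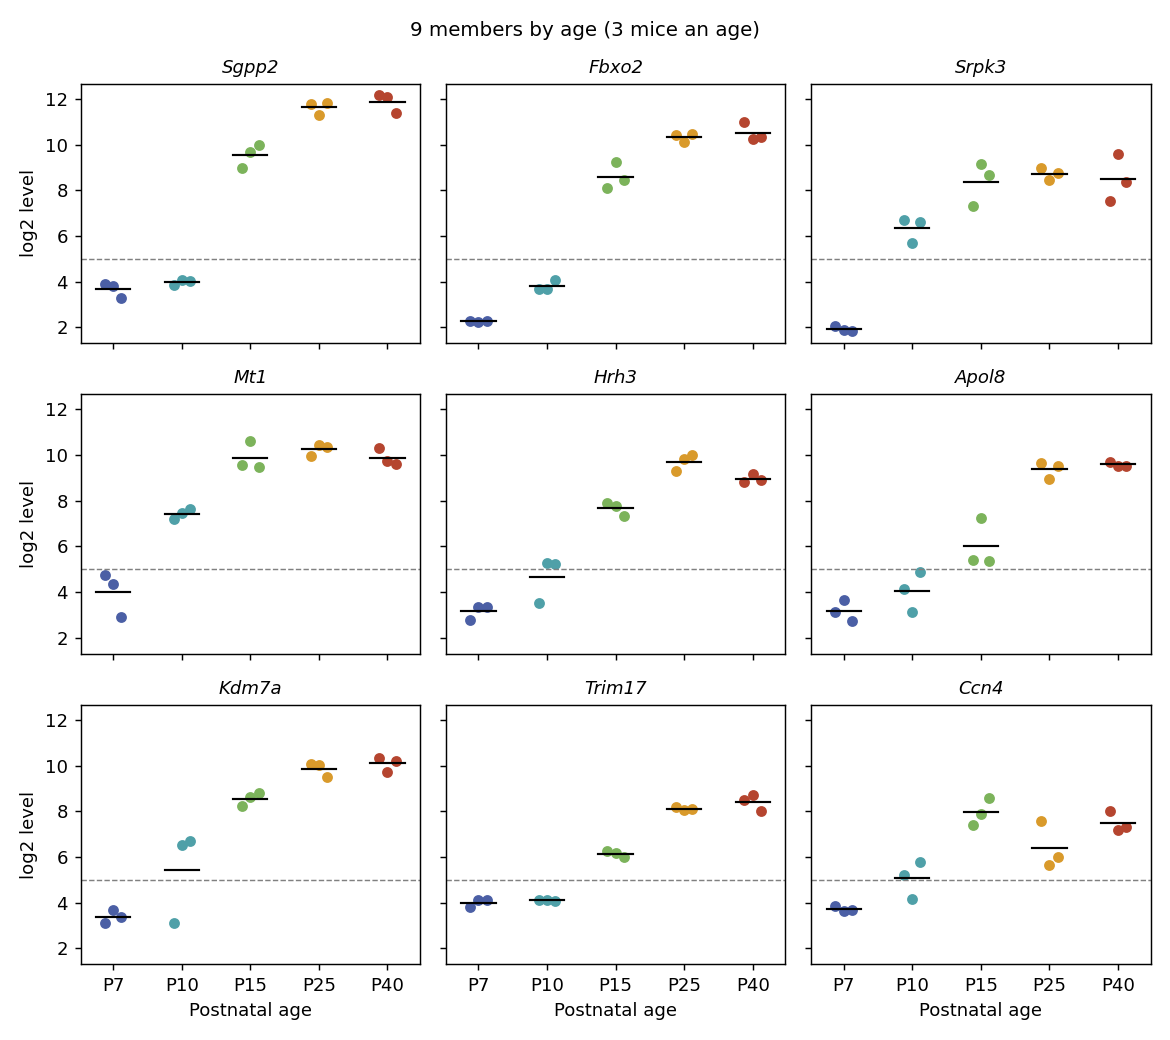
Log2 level on each array (points, 3 mice an age) and mean (bar) for 9 members over age, with the limit of 5 dashed. Sgpp2, Fbxo2 and Trim17 are under the limit at P10, Srpk3 and Mt1 are over it, Kdm7a is split between P10 animals, and Ccn4 has its highest mean at P15.

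Cytoskeleton and adhesion held 6 members, all over the limit on at least 1 P10 array. Parva, which ties integrin-linked kinase to actin, read 3.09, 3.99 and 4.06 at P7, 5.14, 5.45 and 6.25 at P10, 7.49, 7.62 and 7.38 at P15, 9.15, 9.48 and 9.73 at P25, and 9.39, 8.88 and 9.42 at P40. Its P10 arrays were over the limit, so the rule itself placed P7 below them, and they lay below those of P15 without overlap. The P25 arrays were 3.87-fold above P15 (1.95, SE 0.35, limma adjusted p = 0.0058). Clstn3, a synaptic adhesion protein, Kank2 and Kank4, adaptors at cell adhesions, Myl6, a myosin light chain, and Tor1aip1, a nuclear envelope partner of torsin, had later means of 7.72, 8.07, 7.03, 5.96 and 6.11.

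Golgi, endosome and other membrane proteins held 7 members, of which none rose after P15. Hhatl, a membrane protein related to hedgehog acyltransferase, read 2.13, 2.25 and 2.28 at P7, 3.71, 2.38 and 3.71 at P10, 7.23, 7.84 and 7.57 at P15, 8.73, 8.10 and 9.50 at P25, and 8.75, 9.08 and 8.45 at P40. It was under the limit on all P10 arrays, so the rule itself placed its P15 arrays above them. Golim4 and Cog6, of Golgi transport, Ehd4, of endosome recycling, B3gnt2, which extends glycans, Rhbdl3, a rhomboid-like protein, and Necab3, a calcium-binding protein, differed from P7 by 2.30 to 4.05.

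The last 17 members are little described or noncoding, and 3 of them rose after P15. Ccdc28a, a coiled-coil protein, read 2.66, 2.19 and 4.80 at P7, 5.28, 6.82 and 7.16 at P10, 7.75, 8.80 and 8.17 at P15, 10.19, 10.65 and 10.52 at P25, and 9.97, 10.40 and 10.11 at P40. It was over the limit on all P10 arrays and rose 4.63-fold from P15 to P25 (limma adjusted p = 0.043). Ifi27, an interferon-inducible mitochondrial protein, read 4.80, 4.94 and 4.69 at P7, 5.92, 4.95 and 6.04 at P10, 6.03, 7.78 and 6.76 at P15, 9.23, 9.43 and 10.43 at P25, and 9.66, 8.86 and 8.85 at P40. Its P7 arrays were close to the limit, its P25 and P40 arrays lay above all P15 arrays, and the increase to P25 was 7.16-fold (2.84, SE 0.46, limma adjusted p = 0.0027).

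Ankrd33b, an ankyrin repeat protein, read 3.03, 2.97 and 3.02 at P7, 5.83, 5.86 and 3.70 at P10, 6.24, 5.48 and 5.41 at P15, 8.37, 8.40 and 8.44 at P25, and 7.90, 8.02 and 7.48 at P40. P10 replicate 3 was under the limit while both other P10 arrays overlapped with P15, and the P25 arrays lay close together, 2.70 (SE 0.47, limma adjusted p = 0.0048) above P15. Armt1, a protein methyltransferase, was 2.20, 3.89 and 5.05 at P10 against 3.88, 4.50 and 3.94 at P7, and D3Ertd751e was 4.02, 3.59 and 3.96 against 4.07, 4.51 and 4.55. Zdbf2, an imprinted gene, Dancr, a long noncoding RNA, and Gm15417, Wdr83, Aard, A930017M01Rik, Hsbp1l1, Gin1, Fam71e1, Cd164l2 and Fam78a had later means of 5.86 to 7.26.

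A pair of pathway lists gave the surroundings of the members. Sphingolipids are broken down to ceramide and sphingosine, sphingosine kinases add a phosphate, and phosphatases such as Sgpp2 take it off. Of 24 other genes of sphingolipid metabolism tested, 5 were called higher at P15 than at P7 by limma (Asah2, Smpd1, Sphk1, Degs1 and Asah1) and 3 lower (Smpd3, Cers2 and Cers4), where 20.9 and 11.1% of all genes tested were. Asah2, a ceramidase, was 5.90 ± 0.12 (SD, n = 3) at P7, 8.99 ± 0.14 at P15 and 10.72 ± 0.33 at P40. Sphk1, a sphingosine kinase, was 2.21 ± 0.02, 4.45 ± 0.73 and 6.65 ± 1.44. Its P7 and P15 means both lay under the limit, so that it passed the filter on low values only through later arrays and its call for P15 compares values at background. These were also the 2 genes of the list called higher at P40 than at P15, beside 2.17% of all genes tested. Sgpp1, the other phosphatase of this type, was 10.33 ± 0.66 at P7 and 11.07 ± 0.11 at P15 and did not pass (limma adjusted p = 0.079).

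The other list held the coactivator PGC-1alpha (Ppargc1a), its partners the estrogen-related receptors and MEF2 factors, and their reported targets. No member belonged to it, but Pvalb, which met the values of the rule, and others of the list had been set apart by symbol, so nothing is read from this. Of 17 genes tested, 7 were called higher at P15 than at P7 (Pvalb, Nefh, Syt2, Cplx1, Sirt3, Esrrg and Esrra) and 1 lower (Mef2d), beside 20.9 and 11.1% of all genes tested. Ppargc1a itself was 13.62 ± 0.07 at P7 and 13.78 ± 0.12 at P15. Syt2, the fast calcium sensor of release, and Pvalb were also called higher at P40 than at P15, beside 2.17% of all genes tested. Both lists were written with earlier results of these data known.

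By symbol, 27 members fell in 1 of 14 gene families. Of the 7723 genes on at all later ages and not set apart by symbol, 1.1% were members. By family they were 6 of 393 transcription and chromatin regulators, 4 of 288 genes of the ubiquitin system, 3 of 225 kinases and phosphatases, 3 of 119 cytoskeletal genes, 2 of 165 carriers and 2 of 130 lipid genes. Trophic factors held 3 of 42, mitochondrial genes 2 of 151, small GTPases 1 of 160 and receptors for modulators 1 of 41. Membrane traffic held 0 of 191, adhesion and matrix 0 of 122, remaining channels and pumps 0 of 66, and G protein and cyclic nucleotide signalling 0 of 59. These patterns of symbols miss some members of like role, such as Clstn3, Ehd4, Golim4 and Cog6, and the counts are small, so no family is singled out.

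Other probe sets bear on how each gene was read. For 37 members the probe set used was the only one, and 48 had 74 others. Of these, 49 were at or under the limit on all 15 arrays, 25 exceeded it somewhere, and all 25 had a higher mean on the later arrays than at P7. Only 4 of the 25 exceeded it on a P7 array. For the others that direction was largely set by the sorting, so nothing is read from it. A second probe set met the whole rule in 4 members, Adm, Faim2, Hsdl2 and Kdm7a. A further probe set was over the limit on a P7 array for Acad11, Ccdc28a, Etfrf1 and Prune2, so for these 4 genes absence at P7 depends on the probe set read.

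The set has a sharp edge only by construction. The members nearest to the limit were A930017M01Rik, with a highest P7 value of 4.97 and a lowest later value of 5.22, Dcp1a (4.97 and 5.95), Tor1aip1 (4.96 and 5.20), Uap1l1 (4.57 and 5.04) and Gin1 (4.04 and 5.06). Just outside lay Hipk1 and Mpp5, which missed on P15 replicate 1 by 0.002 and 0.022, and Tubgcp5, Stard9 and Gpr3, which missed on 1 P7 array each by 0.005, 0.016 and 0.022. Without P7 replicate 1, 160 genes met the rule.

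Promoter sequence is shown for some members with a letter match to a known element, and a shared control of these genes was not tested. RefSeq promoters (GRCm38.p6) were found for 61 of 85 members, or 71.8%, under the cover of 80% set for such a check, so a comparison of sequence content between members and other genes would be void and is not given. Motifs were searched on both strands in the 250 bases before each annotated start, and capitals mark the match. The TATA box, TATAAA, is anywhere in these bases in 12.4% of all 32851 promoters of the table, and in 5 of the 84 promoters of members. Those shown were picked by position. In 3 members, Srpk3, Abca1 and Cela1, it lay with its first base 31, 29 and 27 bases before the start. The windows are chrX:73774354-73774399 on the plus strand and chr4:53159899-53159944 and chr15:100687922-100687967 on the minus strand.
Srpk3: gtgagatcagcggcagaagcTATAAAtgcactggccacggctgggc
Abca1: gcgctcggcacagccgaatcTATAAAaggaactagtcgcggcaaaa
Cela1: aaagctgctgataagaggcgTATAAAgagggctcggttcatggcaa

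The full cyclic AMP response element, TGACGTCA, is in 1.55% of all promoters and in 6 of the 84 promoters of members. With the low cover of members, nothing is read from these shares. Cdc14b, which rose after P15, was among the members whose promoters hold it. Its window, chr13:64275022-64275069 on the minus strand, and that of Zfp367, chr13:64152451-64152498 on the minus strand, lie on the same chromosome. Zdbf2, chr1:63273190-63273237 on the plus strand, and Fam71e1, chr7:44496554-44496594 on the plus strand, also hold it, as do Atg16l2, chr7:101302089-101302126, and Myl6, chr10:128493887-128493927, both on the minus strand. The element overlaps its own shorter form TGACG, which is in 17.8% of all promoters and in 29 of the 84 promoters of members.
Cdc14b: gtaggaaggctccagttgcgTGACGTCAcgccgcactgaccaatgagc
Zfp367: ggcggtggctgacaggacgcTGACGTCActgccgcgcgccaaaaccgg
Zdbf2: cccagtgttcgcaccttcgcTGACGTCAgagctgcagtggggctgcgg
Fam71e1: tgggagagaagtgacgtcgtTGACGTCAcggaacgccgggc
Atg16l2: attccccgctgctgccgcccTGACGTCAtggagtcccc
Myl6: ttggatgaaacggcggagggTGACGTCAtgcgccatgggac

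Sgpp2 and Fbxo2, described above, carried other matches. Sgpp2 had an E-box, CACGTG, 220 to 215 bases before its start (chr1:78310096-78310161, plus strand). This sequence is in 6.02% of all promoters and in 6 of the 84 promoters of members. Fbxo2 had TGACG 47 to 43 bases before its start (chr4:148160591-148160655, plus strand). A match describes the letters and says nothing of whether a factor binds there in these cells.
Sgpp2: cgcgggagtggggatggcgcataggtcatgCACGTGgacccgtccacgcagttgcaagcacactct
Fbxo2: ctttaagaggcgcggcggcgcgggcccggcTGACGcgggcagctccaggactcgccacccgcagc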

How the data were processed

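RNA from 15 pools of hand-picked neurons, 1 animal each, was hybridised to Affymetrix Mouse Genome 430 2.0 arrays. The authors deposited log2 values, made with GCRMA per the submitters' processing notes; its version is not given in the sources used here. They were used as deposited. GCRMA equalises arrays and models background, so low values cluster near a floor and differences against P7 are bounds. For arrays, depth has no counterpart and their number limits the precision.

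Genes came from single-gene probe sets in GEO's platform annotation. Of 45101 probe sets, 1 per gene was kept, the one with the highest mean, and 9663 genes over 5 on at least 3 arrays were tested. A means model over 5 ages was fitted with limma 3.58.1 (R 4.3.3; trend; 10 residual and a median of 4.85 prior degrees of freedom), two-sided, with Benjamini-Hochberg adjustment over 9663 genes and a call under 0.05. The fit was tested on simulated data. A ± gives the SD over 3 arrays. Figures used Python 3.11.15, pandas 2.3.3 and matplotlib 3.10.9.

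Members, lists and tests were chosen with earlier results of these data known. Genes named were the 15 largest differences from P7, the 8 highest and 8 lowest at P10, the 5 smallest adjusted p per comparison, the 5 nearest to the limit on each side, members of the lists and up to 3 per family; others were chosen after their values were seen. Alternatives changed the limit, the normalization, the probe set choice, the handling of low values, array weights, the arrays included and a replicate block. Animals differ between ages, so replicate numbers do not pair them, and correlations of same-numbered deviations ran from -0.40 to 0.27.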

Additional observations from a re-analysis of the deposited data

Results flagged for a closer look

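Probe sets without a gene name were left out of the report because no gene could be given. Of 9160 probe sets annotated to no gene, 17 met the same values as the members, at or under 5 on all P7 arrays and over 5 on all later arrays. Of 932 annotated to several genes, 2 did so. The brightest of these, annotated to several genes, averaged 3.99 at P7, 5.93 at P10 and 7.55 on the 9 later arrays. The brightest with no gene averaged 3.58, 6.28 and 7.38 at these ages, and the next 4.27, 5.86 and 7.23.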

How the results depend on the processing

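The number of members was 85 as reported, 153 with a limit of 7 and 132 with the probe set of largest variance, and 85 to 160 when single arrays were left out. Much of the membership turned over: 32 of 60 genes were shared at a limit of 4, 41 of 125 at 6, 23 of 153 at 7, 84 of 132 with the largest variance and 49 of 106 with the mean of all probe sets, against 79 of 84 after quantile normalization and 73 of 77 with equal medians. With limits of 4, 6 and 7, members over the limit on all P10 arrays numbered 45, 4 and 1, and those over it on none 3, 53 and 76; leaving out single P10 arrays gave 24 to 36 and 20 to 32. With array weights, 24 members rose and 2 fell from P15 to P25, 24 rose and 1 fell from P15 to P40, 2 rose from P25 to P40, and 31 differed among these ages. With values under 5 set to 5, 23 rose from P15 to P40. Without both P15 arrays with low spiked controls, 6 rose from P15 to P25 and 8 differed among the ages. Leaving out single arrays gave 8 to 17 rising and 0 to 1 falling from P15 to P25, 9 to 19 and 0 from P15 to P40, and 9 to 19 for any difference. The cause of these changes was not tested. With the replicate number as a block, 14 members rose from P15 to P25, 15 from P15 to P40 and 17 differed, as without it. Of 280 recomputed results for the 10 named differences, 275 kept direction and call, 5 lost the call and 0 reversed. These differences were picked for the smallest adjusted p, and leaving out a P7 or P10 array cannot change their size. The totals are thus no measure of how stable calls are over the members. The call was lost for Trim17, Ankrd33b and Crebl2 without both P15 arrays with low spiked controls, and for Ifi27 and Ankrd33b with the mean of all probe sets.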
